A study of Homo sapiens with 6 samples.

Results

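The genes described here lie in genomic order along chromosome 10, from 10q11.2 to 10q22.1, and were set against each other in crizotinib-resistant and control H3122 cells. The list holds 36 genes, from PARG at the centromeric end to TSPAN15 at the telomeric end, out of 51537 genes in the deposited table, and all 36 were found there by symbol. Between the start of PARG and the end of TSPAN15 the stretch spans 19.7 Mb (chromosome 10, 49818279 to 69507669, in GENCODE 29 on GRCh38). The members were chosen by the difference in their TPM between the same resistant and control libraries. Their change between the groups is therefore given as a description, without a test.

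Crizotinib inhibits the kinases ALK and MET, and H3122 is a human lung adenocarcinoma cell line that carries an EML4-ALK fusion. The resistant cells were an H3122 derivative raised under crizotinib, with the dose stepped up between 0.1 and 10 µM, and the control cells were H3122 without that selection. Each group had 3 poly(A) RNA libraries, and both share the H3122 background. It is not stated whether the resistant derivative is a single clone or a mixed population, whether the drug was present at harvest, or whether replicates were grown separately, so any p-value reflects the spread of these libraries, which can be technical.

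Neighbouring genes on a chromosome share their copy number, and often their replication timing and chromatin environment, while each keeps its own promoter and RNA stability. A gain or loss of DNA in a cell line therefore tends to move the RNA of many adjacent genes together, and genes with strong regulation of their own can depart from their neighbours. RNA levels alone do not report DNA copy number or chromatin state, and neither was measured here.

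Levels are TPM, a measure of transcript abundance that divides reads by gene length and scales each library to a common total. Rebuilt from the TPM values, the libraries held an estimated 29856914 to 36695595 reads, and 15485 to 16272 genes had at least 1 TPM. A gene was tested where 3 or more libraries reached 1 TPM, which 16077 genes did. A log2 change is the resistant mean minus the control mean of log2(TPM + 1), given with its standard error, and it understates changes of low genes. Epithelial markers were all tested and summed to 18575.3 to 19908.3 TPM in resistant libraries and 17945 to 18465 TPM in control libraries, while all 9 fibroblast markers and 11 of 14 leukocyte markers stayed under 1 TPM in every library. Of the 10 epithelial markers, 3 were called higher and 4 lower (limma), beside 24% and 24.7% of all genes tested. Their log2 changes included 0.36 for CDH1 and 0.34 for KRT19, and -0.63 for MUC1 and -0.36 for EPCAM. The 9 fibroblast markers summed to 0.255 to 0.435 TPM in resistant libraries and 0.142 to 0.295 TPM in control libraries. The 7 endothelial markers, 4 of them under 1 TPM in every library, summed to 13.2 to 15.4 TPM in resistant libraries and 11.2 to 12.5 TPM in control libraries. The 3 endothelial markers that were tested moved in both directions, with PECAM1 at 0.99 and ESAM at 1.11 called higher and CDH5 at -0.89 called lower on the log2 scale (limma), and their part in the members' levels was not tested. In bulk RNA, fewer cells of a type and less RNA per cell cannot be told apart.

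Of the 36 members, 29 passed the filter. In resistant cells 27 of these 29 had a lower mean log2 level than in control cells, and 2, RHOBTB1 and HKDC1, had a higher one. The median log2 change was -0.59, with quartiles at -0.86 and -0.36 and extremes of -1.29 for STOX1 and 1.28 for HKDC1. The mean TPM of the median gene in resistant cells was 65.5% of its control mean. Over all 16077 genes tested the median change was -0.00 and the quartiles were -0.27 and 0.28. Among all genes tested, 50.5% were below 0. At a Benjamini-Hochberg adjusted p below 0.05 in limma, 22 members were called lower, against a background of 24.7% of all genes tested, and 2 were called higher, against 24%. In either direction 48.6% of all genes tested were called. Leaving out each library in turn gave 21 to 26 members called lower, beside 19.4% to 25.1% of all genes tested. These calls are part of how the list came about and carry no weight as a result.

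The decrease was uneven. Most members, 22 of 29, fell within a band between -1.1 and -0.3 on the log2 scale. The standard deviation among the 29 changes was 0.49. It was 0.54 among the changes of all genes tested and 0.51 among those of protein-coding genes, so the members' spread was near that background. A gene's own replicates differed by a median standard deviation of 0.11, against 0.10 for all genes tested. Groups did not overlap for 24 of the 29, against 57.9% of all genes tested. The 5 members whose libraries overlapped were ARID5B, JMJD1C, RUFY2, DNA2 and SRGN.

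**Figure D1:**
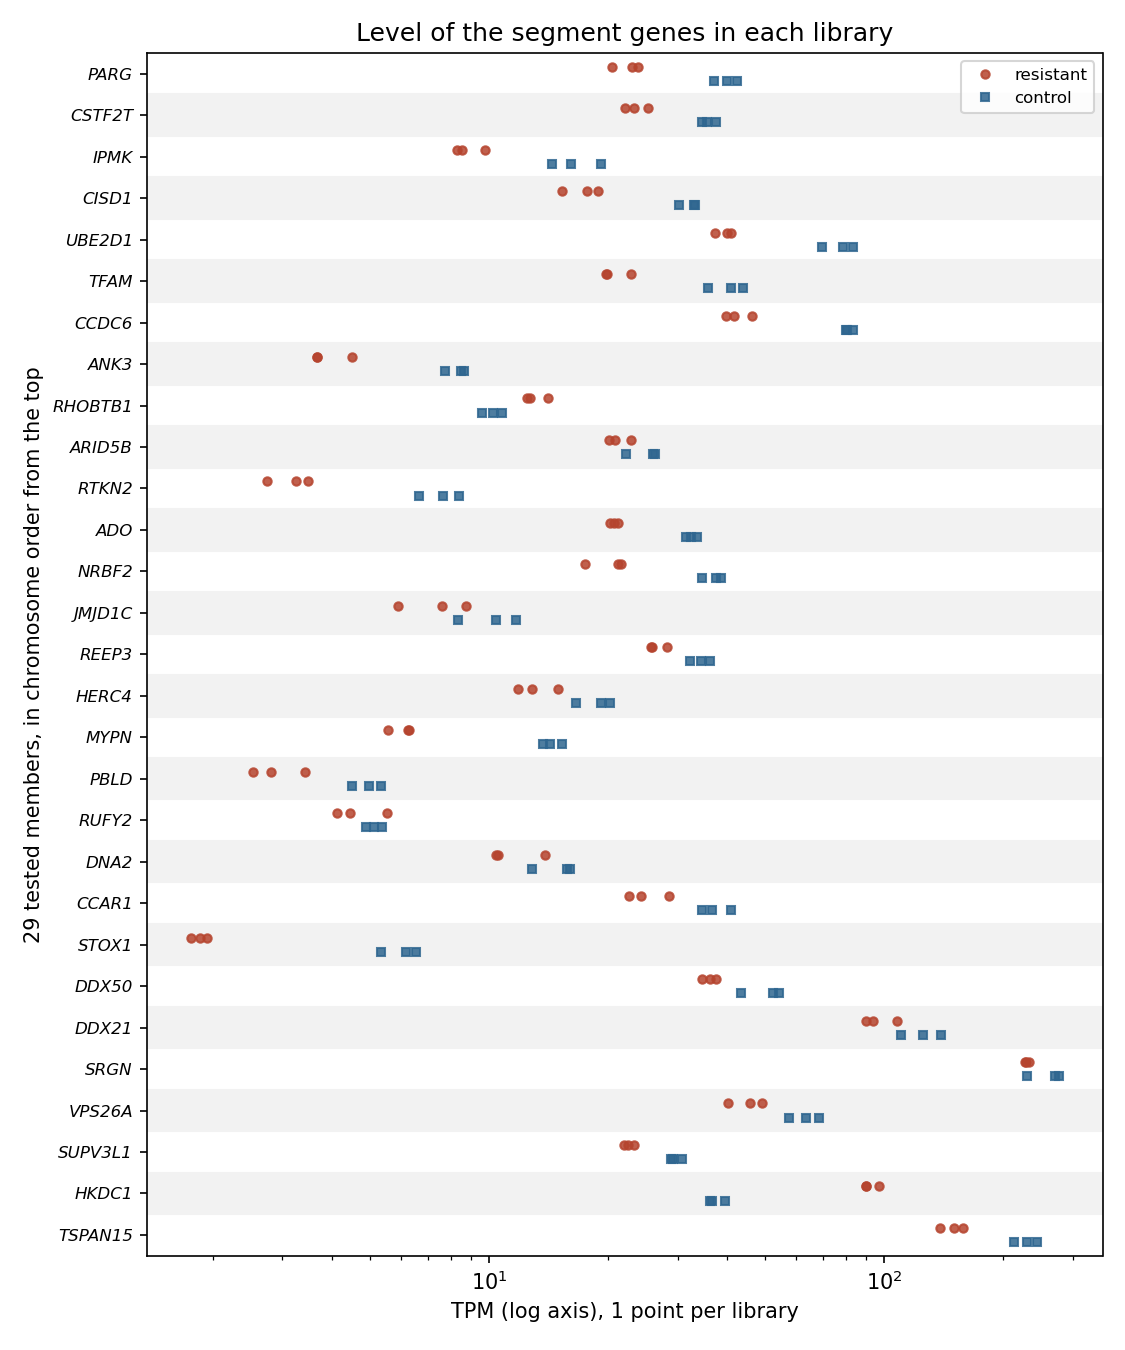
TPM of the 29 tested members (rows, in chromosome order) on a log axis, 1 point for each of 3 resistant libraries (red circles, upper in each row) and 3 control libraries (blue squares). The resistant points lie to the left for 22 members without overlap, and lie to the right for RHOBTB1 and HKDC1.

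The 3 resistant libraries had similar medians but not the same quartiles. Relative to the control mean of each gene, the median member stood at -0.61, -0.61 and -0.60 in resistant replicates 1, 2 and 3. The quartiles were -0.75 and -0.21 in resistant replicate 1, -0.91 and -0.42 in resistant replicate 2, and -0.98 and -0.41 in resistant replicate 3, so the members of replicate 1 lay higher at both quartiles. In the control libraries it stood at -0.11, 0.09 and 0.02. Control replicate 1 was below the control mean for 28 of the 29 members. Over all genes tested, the corresponding medians were 0.03, -0.00 and -0.03 in the resistant libraries and -0.06, 0.04 and 0.02 in the control libraries. The 13 mRNAs encoded by the mitochondrial genome make up a large share of poly(A) RNA. They summed to 169038, 151573 and 163975 TPM in the resistant libraries and to 202379, 161954 and 172403 TPM in the control libraries, so control replicate 1 was the highest. The part of that library's composition in its lower member levels was not tested.

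**Figure D2:**
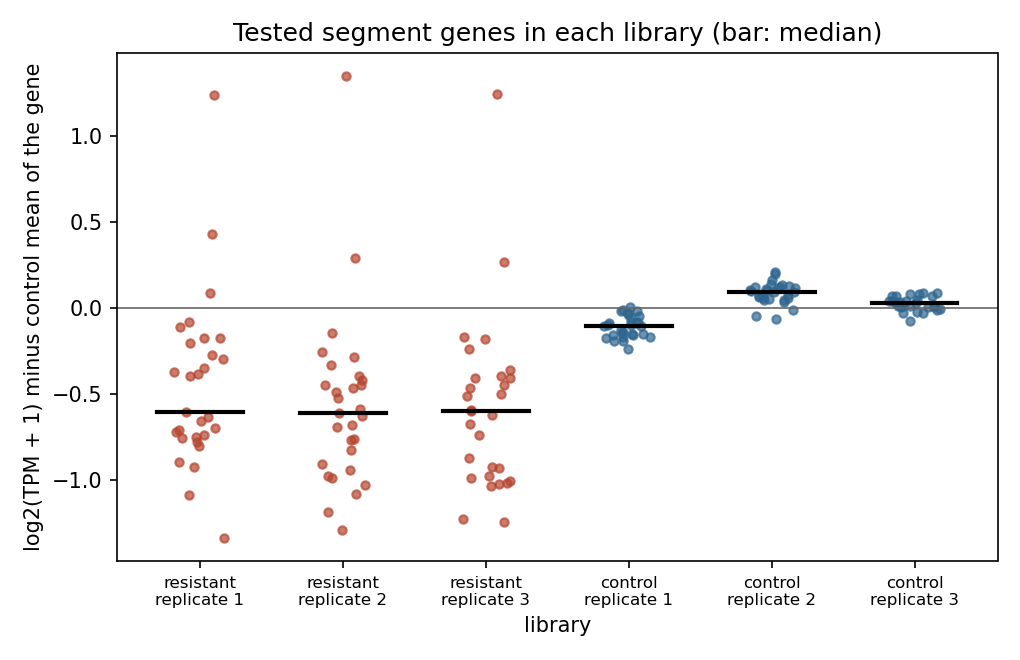
Difference of each tested member from its control mean, on the log2(TPM + 1) scale, in the 3 resistant libraries (left) and the 3 control libraries (right), with a bar at the median of each library. Medians lie between -0.61 and -0.60 in resistant libraries and between -0.11 and 0.09 in control libraries, and the highest resistant point in each library is HKDC1.

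Among the members, the evenness differed along the chromosome. From PARG to ANK3, 8 tested members all were lower, within a narrow range of -0.95 to -0.59 and a median of -0.89, and their resistant means were 47.5% to 65.5% of the control means. From RHOBTB1 to TSPAN15, 21 tested members ranged from -1.29 to 1.28 around a median of -0.45. The standard deviation among members was 0.12 in the centromeric stretch and 0.53 in the telomeric stretch. The tested protein-coding genes that are not on the list had a standard deviation of 0.68 over 7 genes from PARG to ANK3, between -2.39 and -0.17. It was 0.32 over 7 genes from RHOBTB1 to TSPAN15. In the first set DKK1 lay lowest, at -2.39, with SGMS1 next at -1.13. CDK1, at 0.66 between ANK3 and RHOBTB1, was in neither set. Among these unlisted genes the order of the standard deviations was therefore the reverse of that among the members. With 7 genes in each set, DKK1 far below the others and CDK1 left out, it does not settle which stretch was the more even. The evenness of the centromeric stretch is thus described for the listed members only, and the boundary after ANK3 was placed after the values were seen. Across the 29 tested members the Spearman correlation of change with position was 0.43, as a description over genes that share the same 6 libraries. With mean level it was 0.19, with exon length -0.05 and with genomic span -0.01. Adjacent members differed by a median of 0.23 on the log2 scale over 28 pairs.

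In the centromeric stretch the most abundant member was CCDC6, which encodes a coiled-coil protein known as a fusion partner of RET in thyroid tumours. Its level was 46.2, 41.7 and 39.7 TPM in resistant libraries and 80.3, 83.2 and 80.7 TPM in control libraries. The groups were far apart, and the mean in resistant cells was 52.2% of that in control cells, a log2 change of -0.92 ± 0.06. UBE2D1, a ubiquitin-conjugating enzyme that works with many RING-type ligases, had 40.8, 37.2 and 39.9 TPM in resistant libraries and 69.5, 83.6 and 78.8 TPM in control libraries. Each resistant library was below each control library, and the change was -0.95 ± 0.07. The neighbouring TFAM encodes the factor that packages mitochondrial DNA and starts its transcription. TFAM had 22.9, 19.8 and 19.9 TPM in resistant libraries and 35.9, 43.9 and 40.9 TPM in control libraries, with a change of -0.91 ± 0.09. UBE2D1 and TFAM thus stood at 50.9% and 51.9% of their control means, nearly the same share. The windows around their starts, 250 bases before to 50 after, are shown because these adjacent members moved alike. They are from RefSeq on GRCh38.p14, both on the plus strand, at chr10:58334756-58335055 for UBE2D1 and chr10:58385160-58385459 for TFAM, 5′ to 3′, and capitals mark each match to GGGCGG or CCAAT on either strand.
UBE2D1: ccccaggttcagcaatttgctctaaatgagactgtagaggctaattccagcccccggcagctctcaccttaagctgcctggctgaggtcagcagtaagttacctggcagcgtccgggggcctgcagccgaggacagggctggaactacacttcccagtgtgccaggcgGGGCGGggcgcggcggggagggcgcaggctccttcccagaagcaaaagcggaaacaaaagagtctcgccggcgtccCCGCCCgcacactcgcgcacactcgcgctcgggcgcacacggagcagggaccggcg
TFAM: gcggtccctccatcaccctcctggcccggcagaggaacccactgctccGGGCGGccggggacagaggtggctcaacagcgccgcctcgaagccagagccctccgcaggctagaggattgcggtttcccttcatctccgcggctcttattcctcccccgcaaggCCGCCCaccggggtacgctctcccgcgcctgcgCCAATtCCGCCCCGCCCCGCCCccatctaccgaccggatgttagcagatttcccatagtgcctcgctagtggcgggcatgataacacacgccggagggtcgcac
UBE2D1 holds 2 matches to GGGCGG, once as printed and once as its reverse complement CCGCCC. TFAM holds 5 such matches and 1 CCAAT, and 3 of its CCGCCC matches follow each other with 1 shared base at each join.

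The other tested members of the centromeric stretch serve unrelated processes. PARG encodes the glycohydrolase that takes poly(ADP-ribose) off proteins, and averaged 22.4 ± 1.78 TPM in resistant cells and 39.8 ± 2.72 TPM in control cells (SD, n = 3 each), a change of -0.80. CISD1, an iron-sulfur protein of the outer mitochondrial membrane, averaged 17.3 ± 1.82 TPM in resistant cells and 32.2 ± 1.58 TPM in control cells, a change of -0.86. CISD1 was near the median of the stretch, while PARG had the smallest decrease but for CSTF2T. IPMK, an inositol polyphosphate kinase, averaged 8.88 ± 0.787 TPM in resistant cells and 16.6 ± 2.41 TPM in control cells, a change of -0.83. ANK3, which encodes the membrane adaptor ankyrin-G, averaged 3.94 ± 0.478 TPM in resistant cells and 8.30 ± 0.489 TPM in control cells, a change of -0.91. CSTF2T is an intronless relative of the cleavage stimulation factor gene CSTF2. It had the smallest decrease of these 8, with 23.5 ± 1.64 TPM in resistant cells, 35.9 ± 1.54 TPM in control cells and a change of -0.59.

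In the telomeric stretch the largest decrease was that of STOX1, which encodes a winged-helix DNA-binding protein studied in pre-eclampsia. STOX1 had 1.76, 1.85 and 1.94 TPM in resistant libraries and 5.33, 6.52 and 6.17 TPM in control libraries, an estimated 64.6 to 253 reads. Its resistant mean was 30.8% of the control mean, with a change of -1.29 ± 0.11. MYPN, which encodes the sarcomere protein myopalladin, had 6.25, 6.27 and 5.56 TPM in resistant libraries and 14.3, 13.7 and 15.3 TPM in control libraries, with a change of -1.13 ± 0.08. RTKN2, which encodes a relative of the signalling protein rhotekin, had 3.49, 2.75 and 3.24 TPM in resistant libraries and 6.66, 8.42 and 7.64 TPM in control libraries, with a change of -1.04 ± 0.11. These were the 3 members at or below -1, and all 3 had low to moderate levels with no overlap between groups.

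Several other members between CCAR1 and TSPAN15, a span that also holds STOX1, were lower as well. DDX21, which encodes an RNA helicase of the nucleolus, had 108, 89.8 and 93.7 TPM in resistant libraries and 111, 140 and 125 TPM in control libraries. The groups were separate by a narrow margin, set by resistant replicate 1 and control replicate 1, and the change was -0.36 ± 0.10. Its adjacent paralogue DDX50 averaged 36.1 ± 1.52 TPM in resistant cells and 50.02 ± 5.73 TPM in control cells, a change of -0.45. VPS26A, a subunit of the retromer that returns cargo from endosomes, averaged 45.1 ± 4.48 TPM in resistant cells and 63.1 ± 5.47 TPM in control cells, a change of -0.48. CCAR1, a coactivator linked to cell cycle and apoptosis, averaged 25.2 ± 3.06 TPM in resistant cells and 37.4 ± 3.26 TPM in control cells, a change of -0.56. The last member, TSPAN15, encodes a tetraspanin that directs the protease ADAM10. TSPAN15 had 138, 158 and 151 TPM in resistant libraries and 213, 244 and 230 TPM in control libraries, with wide separation and a change of -0.61 ± 0.07.

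Another 6 members of the stretch also had separate groups. NRBF2, a subunit of an autophagy lipid kinase complex, averaged 20.1 ± 2.25 TPM in resistant cells and 37.01 ± 2.10 TPM in control cells, a change of -0.85 that lay within the range of the centromeric genes. ADO, the intronless gene of a thiol oxidase that acts on cysteamine, averaged 20.7 ± 0.525 TPM in resistant cells and 32.5 ± 0.982 TPM in control cells, a change of -0.62. PBLD, named for its phenazine biosynthesis-like domain, changed by -0.60 to 59.3% of the control mean. HERC4, a ubiquitin ligase, stood at 70.7% of its control mean, with a change of -0.47. REEP3, a protein of the endoplasmic reticulum membrane, stood at 77.5%, with a change of -0.36. SUPV3L1 encodes the helicase of the mitochondrial RNA degradation complex, and had 22.4, 23.3 and 22.02 TPM in resistant libraries and 29.2, 30.8 and 28.9 TPM in control libraries. Its groups were tight and separate, with a change of -0.38 ± 0.05.

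HKDC1 departed most from the rest. It encodes a hexokinase domain protein that phosphorylates glucose, the entry step of glycolysis. HKDC1 had 89.9, 97.0 and 90.0 TPM in resistant libraries and 36.7, 36.2 and 39.6 TPM in control libraries. Every resistant library was far above every control library, and the resistant mean was 246% of the control mean, a log2 change of 1.28 ± 0.05. Its neighbour on the centromeric side, SUPV3L1, and on the telomeric side the hexokinase gene HK1, both were lower in resistant cells. HK1, no member of the list, had 167, 174 and 167 TPM in resistant libraries and 188, 200 and 204 TPM in control libraries, a change of -0.22 ± 0.04 (limma, Benjamini-Hochberg adjusted p = 0.00538). Annotated antisense transcripts overlap HKDC1, and RP11-227H15.4 averaged 10.6 ± 0.261 TPM in resistant cells and 4.12 ± 0.819 TPM in control cells, a change of 1.20. The library kit keeps strand, but whether the counting used it is not given in the sources used here, so HKDC1 and antisense reads may be mixed. The windows of SUPV3L1 (chr10:69179984-69180283) and HKDC1 (chr10:69220082-69220381), both on the plus strand of GRCh38.p14 and from RefSeq, are shown as neighbours that moved in opposite directions, 5′ to 3′, with capitals at matches to the same motifs.
SUPV3L1: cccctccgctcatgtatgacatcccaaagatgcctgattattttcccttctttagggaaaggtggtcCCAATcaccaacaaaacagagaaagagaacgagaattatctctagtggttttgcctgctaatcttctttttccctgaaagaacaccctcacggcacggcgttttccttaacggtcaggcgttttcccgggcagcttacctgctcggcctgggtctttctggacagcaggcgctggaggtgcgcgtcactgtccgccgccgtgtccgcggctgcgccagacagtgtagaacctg
HKDC1: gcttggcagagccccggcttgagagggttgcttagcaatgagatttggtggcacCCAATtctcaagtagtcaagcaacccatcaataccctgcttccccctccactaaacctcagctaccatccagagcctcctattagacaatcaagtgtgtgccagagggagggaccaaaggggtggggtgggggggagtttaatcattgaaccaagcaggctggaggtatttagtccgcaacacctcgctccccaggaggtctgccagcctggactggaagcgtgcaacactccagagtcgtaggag
Each holds 1 CCAAT and no GGGCGG on either strand. HKDC1 has 5 CpG pairs in this window and SUPV3L1 has 18, against 25 for UBE2D1 and 29 for TFAM.

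RHOBTB1 was the other member with a higher level. It encodes an atypical small GTPase that serves as an adaptor of CUL3 ubiquitin ligases. RHOBTB1 had 14.1, 12.7 and 12.4 TPM in resistant libraries and 10.2, 10.8 and 9.62 TPM in control libraries. The groups did not overlap, and the change was 0.33 ± 0.07, or 128% of the control mean. The member before it, ANK3, was at 47.5%.

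The 5 members with overlapping groups had smaller differences. SRGN encodes serglycin, a proteoglycan of secretory granules that is abundant in blood cells, and was the most abundant member. SRGN had 229, 233 and 228 TPM in resistant libraries and 229, 277 and 271 TPM in control libraries, so that control replicate 1 lay within the resistant range, with a change of -0.17 ± 0.07. Of the leukocyte markers, PTPRC, the pan-leukocyte marker CD45, averaged 0.213 ± 0.0911 TPM in resistant cells and 0.0509 ± 0.0534 TPM in control cells, and CD2, MS4A1, LYZ and TYROBP were listed at 0 in every library. ARID5B, a DNA-binding partner of a histone demethylase, had 22.8, 20.1 and 20.9 TPM in resistant libraries and 22.2, 26.03 and 26.4 TPM in control libraries, with a change of -0.21 ± 0.08. RUFY2, an endosomal protein with a RUN and a FYVE domain, had 5.50, 4.12 and 4.44 TPM in resistant libraries and 4.89, 5.35 and 5.13 TPM in control libraries. Resistant replicate 1 was the highest of all 6 for RUFY2, and its change of -0.11 ± 0.11 was no larger than its error. DNA2, a nuclease and helicase of DNA replication, changed by -0.33 ± 0.13, and JMJD1C, of the KDM3 demethylase family, by -0.41 ± 0.16. RUFY2 stayed uncalled under every alternative tried. ARID5B, JMJD1C, DNA2 and SRGN were called lower when control replicate 1 was left out.

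**Figure D3:**
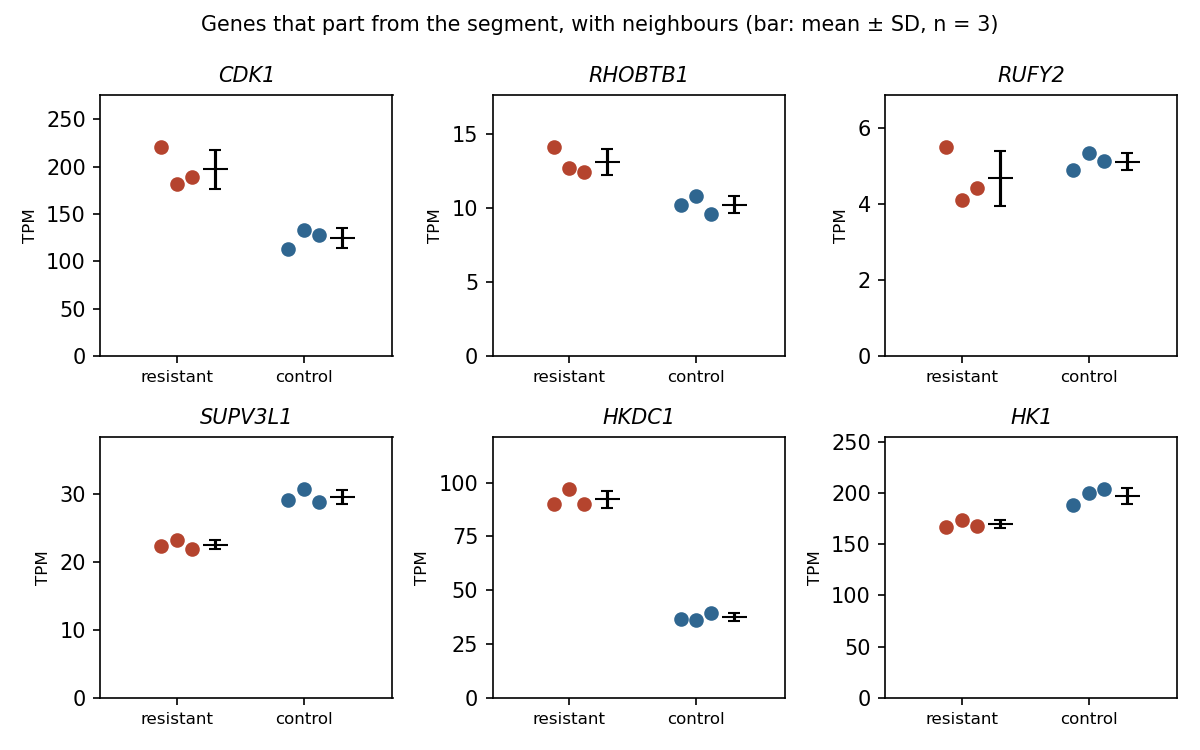
TPM of 6 genes in the 3 resistant libraries (red, left in each panel) and the 3 control libraries (blue, right), each axis from 0, with mean ± SD (n = 3) as a bar. HKDC1, RHOBTB1 and CDK1 are higher in resistant cells, SUPV3L1 and HK1 are lower, and the RUFY2 groups overlap.

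The 7 members below the filter give little information. BICC1, which encodes an RNA-binding protein, and FAM13C were listed at 0 in all 6 libraries. PHYHIPL reached 0.0269 TPM in resistant replicate 2 and 0.0233 TPM in control replicate 3 and was at 0 elsewhere. TMEM26 was at 0 except for 0.0149 TPM in resistant replicate 3. A1CF, which encodes a partner of the APOBEC1 RNA editing enzyme, had 0.174, 0 and 0.0842 TPM in resistant libraries and 0, 0.0482 and 0 TPM in control libraries. The levels of these 5 genes were close to or at 0 in both groups. ASAH2, a neutral ceramidase, had 0.521, 0.539 and 0.673 TPM in resistant libraries and 0.651, 0.987 and 1.07 TPM in control libraries, with overlap. Its near-identical copy ASAH2B lies in the same stretch, and the split of reads between them is uncertain. EGR2, a zinc finger factor of immediate early responses, had 0.115, 0.119 and 0.140 TPM in resistant libraries and 0.388, 0.512 and 0.439 TPM in control libraries. Its groups did not overlap, but each value rests on an estimated 4 to 17 reads.

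Genes between the members that are not on the list show how far the pattern extends. The 15 other protein-coding genes of the stretch that were tested had a median change of -0.72. Of these, 12 were called lower, 1 was called higher and 2, HNRNPH3 and ASAH2B, were not called. Over all genes tested, 24.7% were called lower and 24% higher. The stretch was outlined with these libraries, so the count among the 15 genes is not independent of it. DKK1, a secreted inhibitor of Wnt signalling, had 23.4, 22.8 and 22.1 TPM in resistant libraries and 115, 130 and 127 TPM in control libraries, the largest decrease among these 15 at -2.39 ± 0.06 (limma, adjusted p = 5.73e-07). SGMS1, a sphingomyelin synthase, averaged 16.8 ± 0.0686 TPM in resistant cells and 38.0 ± 3.25 TPM in control cells, a change of -1.13 (adjusted p = 1.86e-05, limma). ZWINT, a kinetochore protein, averaged 92.6 ± 3.96 TPM in resistant cells and 152 ± 8.81 TPM in control cells, a change of -0.71 (adjusted p = 6.21e-05, limma). SIRT1, a protein deacetylase, averaged 8.90 ± 0.462 TPM in resistant cells and 15.8 ± 2.08 TPM in control cells, a change of -0.76 (adjusted p = 6.62e-04, limma). CDK1, the kinase that drives entry into mitosis, was the exception in the other direction. CDK1 had 220, 182 and 189 TPM in resistant libraries and 113, 133 and 127 TPM in control libraries, a change of 0.66 ± 0.09 (adjusted p = 7.70e-04, limma). It lies between ANK3 and RHOBTB1, so both tested protein-coding genes next after ANK3 were higher in resistant cells.

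Of the remaining genes between the members, AGAP6, FAM21A and TIMM23B changed by -1.07, -0.94 and -0.75, but each has near-identical copies that can share reads. ZNF365 and DNAJC12 changed by -0.72 and -0.83 at low levels. SLC25A16, of the mitochondrial carrier family, and KIAA1279, also named KIF1BP, each changed by -0.56. HNRNPH3, an RNA-binding splicing factor, averaged 51.0 ± 1.30 TPM in resistant cells and 49.2 ± 5.06 TPM in control cells, a change of 0.06 (limma, adjusted p = 0.579). It overlaps PBLD and RUFY2 on the opposite strand. JMJD1C and REEP3 overlap likewise, as do PARG and TIMM23B, and reads of such pairs may be mixed.

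The decrease did not end at the last member. In windows of 5 Mb holding at least 5 tested protein-coding genes, the median change was lowest from 50 to 55 Mb, at -0.94 over 5 genes, and from 55 to 60 Mb, at -0.89 over 6 genes. It was -0.52 over 10 genes from 60 to 65 Mb and -0.46 over 22 genes from 65 to 70 Mb. Past TSPAN15, which ends at 69507669, the medians were -0.54 over 45 genes, -0.53 over 12 genes and -0.38 over 7 genes up to 85 Mb, and -0.01 over 23 genes in the window after. Between TSPAN15 and 85 Mb, 58 of 66 tested genes were below 0, against 51.9% of all protein-coding genes tested. On the other side, the 21 tested genes between 45 Mb and PARG had a median of -0.26, and the window from 40 to 45 Mb had -0.15 over 11. The 442 tested protein-coding genes of chromosome 10 outside the stretch had a median of -0.05. Low window medians were not particular to chromosome 10. Of 520 windows across the genome, 7 had a median at or below that of the 55 to 60 Mb window, 2 of them on chromosome 10, and 46 were at or below that of the 65 to 70 Mb window.

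**Figure D4:**
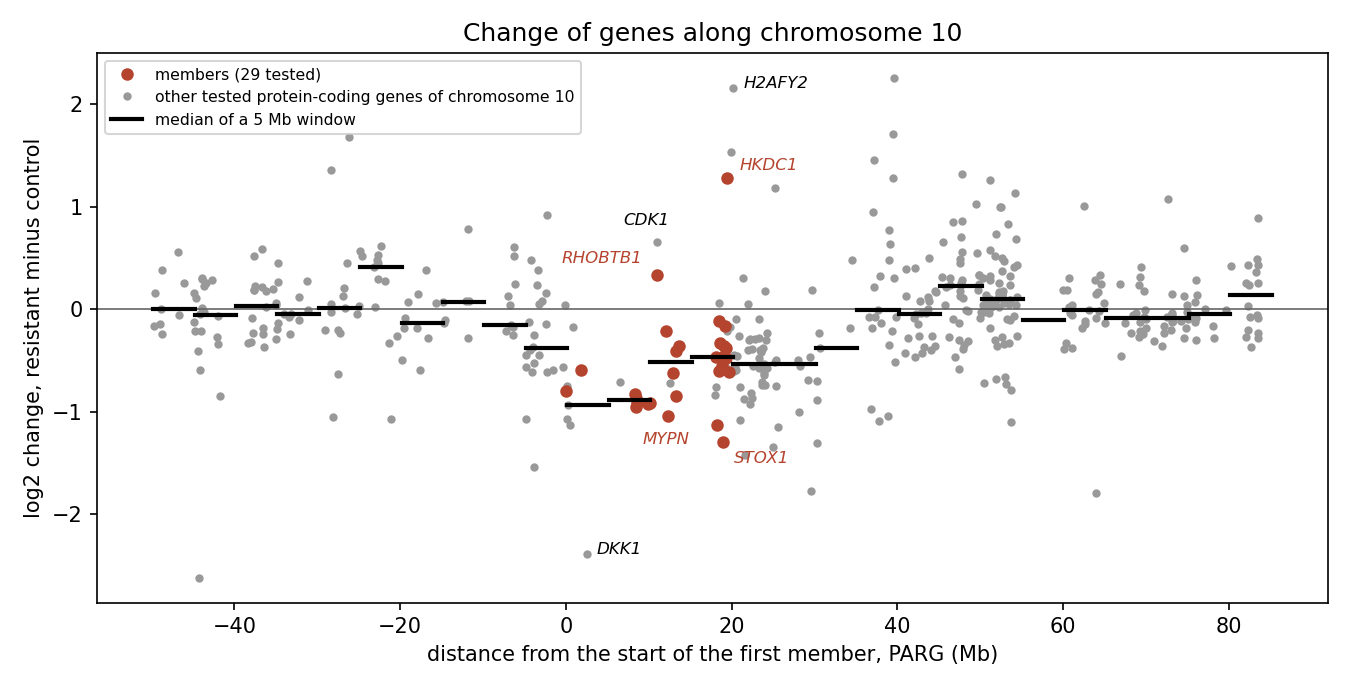
Log2 change, resistant minus control, of tested protein-coding genes of chromosome 10 against distance from the start of PARG in Mb, with the 29 tested members in red, other genes in grey and the median of each 5 Mb window as a black bar. Red points lie mostly between -1.1 and -0.3, HKDC1 and RHOBTB1 lie above 0, and window medians stay below 0 beyond the last member before returning to -0.01.

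Genes next to the ends showed where single genes broke the pattern. Before PARG, MAPK8, which encodes the stress kinase JNK1, averaged 6.86 ± 0.382 TPM in resistant cells and 10.9 ± 0.834 TPM in control cells, a change of -0.60 (limma, adjusted p = 8.10e-04). ERCC6, a DNA repair factor, changed by -0.56 (limma, adjusted p = 0.00101). OGDHL, a relative of oxoglutarate dehydrogenase, had 6.38 ± 0.474 TPM in resistant cells and 6.18 ± 0.425 TPM in control cells and was not called (limma, adjusted p = 0.728). AGAP10 changed by -0.62 and FAM25B was not called, and both have close copies. After TSPAN15, H2AFY2, which encodes the histone variant macroH2A2, averaged 16.6 ± 1.61 TPM in resistant cells and 2.999 ± 0.767 TPM in control cells, a change of 2.15 (limma, adjusted p = 3.08e-05). COL13A1, a transmembrane collagen, averaged 2.29 TPM in resistant cells and 0.139 TPM in control cells, a change of 1.53 (limma, adjusted p = 1.78e-04). AIFM2, known as the ferroptosis suppressor FSP1, fell by 0.57 and TYSND1, a peroxisomal protease, fell by 0.44, while C10orf35 changed by -0.17 and was not called (limma, adjusted p = 0.161). H2AFY2 and AIFM2 overlap on opposite strands, so reads of this pair may be mixed.

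Relatives of the members that lie elsewhere in the genome were read for comparison. For UBE2D1, UBE2D2 averaged 96.0 TPM in both groups and UBE2D3 changed by 0.07, neither called, and UBE2D4 fell by 0.30 (limma, adjusted p = 0.0188). For CISD1, CISD2 averaged 18.5 ± 0.756 TPM in resistant cells and 19.8 ± 2.25 TPM in control cells, a change of -0.09 (limma, adjusted p = 0.433). For VPS26A, 4 of 5 relatives were not called, where 48.6% of all genes tested were called in either direction. Of those 4, VPS26B, VPS29 and VPS35 changed by -0.08, -0.08 and -0.00. VPS35L, a subunit of the related retriever complex, fell by 0.69 (limma, adjusted p = 0.0037). These relatives moved less than the member in most cases, and the difference between member and relative was not tested. For CSTF2T, 2 of 16 other cleavage and polyadenylation genes were called higher and 7 lower, beside 24% and 24.7% of all genes tested. Among them CPSF4 fell by 0.72 and CSTF2 fell by 0.51, while CSTF3 rose by 0.68. For HKDC1, HK2 averaged 44.5 ± 2.60 TPM in resistant cells and 31.4 ± 0.763 TPM in control cells, a change of 0.49 (limma, adjusted p = 2.83e-04).

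**Figure D5:**
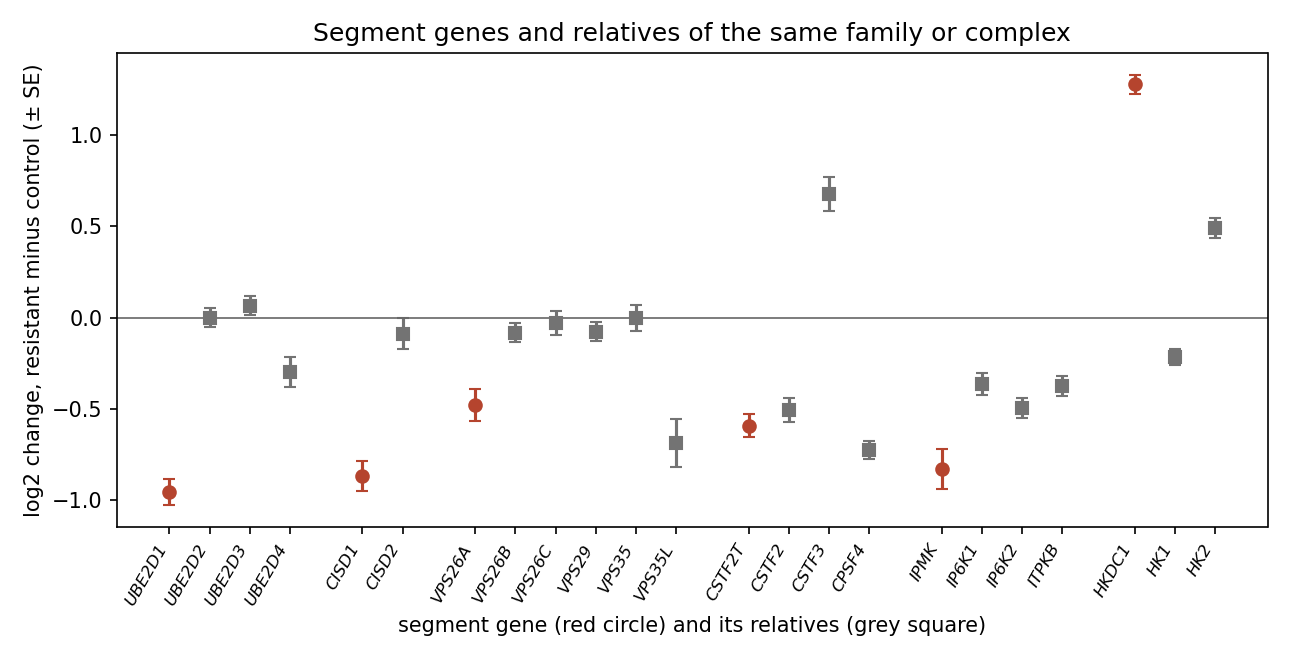
Log2 change, resistant minus control, with its standard error, of 6 members (red circles) and of relatives in the same family or complex (grey squares). UBE2D1, CISD1 and IPMK lie lower than the relatives plotted beside them, VPS26A lies lower than all of its own but VPS35L, CSTF2T lies between CPSF4 and CSTF2, and HKDC1 lies above HK2 and HK1.

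Other genes of the pathways of TFAM, PARG and IPMK are given by their counts, to be read beside the 24% called higher and 24.7% called lower over all genes tested. Of 16 other genes for mitochondrial DNA maintenance and transcription, 5 were called higher, 3 lower and 8 were not called, with a median change of 0.04. POLG, the mitochondrial DNA polymerase, averaged 59.0 ± 1.90 TPM in resistant cells and 39.2 ± 1.29 TPM in control cells, a change of 0.58 (limma, adjusted p = 6.70e-05). TOP1MT, the mitochondrial topoisomerase, changed by -0.65 (limma, adjusted p = 2.18e-04), and TEFM, the mitochondrial transcription elongation factor, by 0.48 (limma, adjusted p = 0.0225). Of the 13 mRNAs encoded by mitochondrial DNA, 1 was called higher, 4 lower and 8 were not called, with a median of -0.15. MT-ATP8 rose by 0.68, while MT-ND5 fell by 0.39 and MT-CO3 fell by 0.32. Of 10 other genes of poly(ADP-ribose) turnover, 3 were called higher and 2 lower, with a median of -0.04. Among them MACROD1 fell by 0.38, PARP3 rose by 0.29 and ADPRS rose by 0.26. Of 9 other inositol phosphate kinase genes, 1 was called higher and 3 lower, and the 3 lower ones were IP6K2, ITPKB and IP6K1, with changes of -0.49, -0.37 and -0.37. For ASAH2, ASAH1 fell by 0.38 (limma, adjusted p = 0.00597) and ACER2 and ACER3 were not called.

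Promoter windows were matched for 31 of 36 members, 25 of them tested. Their median GC content was 64.3% and their median number of CpG pairs was 24, against 58.7% and 14 over all 35116 RefSeq windows of 300 bases. GGGCGG occurred on either strand in 16 of the 25 windows, or 64%, against 44.95% of all windows. CCGGAAG occurred in 5, or 20%, against 10.3%, and CCAAT in 8, or 32%, against 34.6%. TATAAA occurred in 2, or 8%, against 11.5%, and the palindromic NRF1 motif in 1, or 4%, against 1.24%. All windows include those of non-coding genes, and a match is a description of letters. Among the members, MYPN had 2 CpG pairs and STOX1 had 41, although both were among the 3 with the largest decrease, and RHOBTB1 had 42. The Spearman correlation of the log2 change with GC content was -0.22 and with CpG pairs -0.30, over 25 genes measured in the same libraries.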

How the data were processed

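Poly(A) RNA of 3 resistant and 3 control libraries was sequenced after TRIzol extraction and KAPA stranded library preparation, per the labels' protocols. The authors deposited 1 table of TPM for 51537 genes. The submitters' processing notes name HISAT2. Which version, counting tool, build, annotation or filter was used is not given in the sources used here. Length scaling and the fixed column total mean that a large change in a few abundant genes shifts all others.

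All 51537 gene identifiers occur in GENCODE 29, which gave coordinates (GRCh38, 1-based) and exon lengths. Read numbers were rebuilt from TPM and these lengths; 66.9% to 67.6% of values above 0 came out whole within 0.01 read, so depths are estimates. Replicates within a group had r of at least 0.986 and differed by more than counting noise, so none was treated as a copy.

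The 16077 genes that reached 1 TPM in 3 or more libraries were fitted with limma 3.58.1 in R 4.3.3 on log2(TPM + 1) with a group term, mean-variance trend and robust moderation (statmod 1.5.0). The tests, two-sided, were corrected by the Benjamini-Hochberg method over every gene fitted, and an adjusted p below 0.05 was called. The fit was also run on simulated data with far fewer changed genes than were called here, so that run is no measure of these calls. Members were matched by symbol; lists and members were chosen with earlier results of these data known. All 36 members are named. Per-library values were planned for the 5 most abundant, the 5 most negative and 5 most positive changes, members of opposite sign and those below the filter; TFAM, SUPV3L1 and the members' 15 tested neighbours inside, with 5 on each side, were added to the description, TFAM and SUPV3L1 after their values were seen. For each list up to 3 called genes that reached a mean of 5 TPM were named, or all genes of lists of up to 6. Alternatives were a pseudocount of 0.1, no filter, a minimum of 5 TPM, median-ratio scaling, a replicate block and leaving out each library.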

Additional observations from a re-analysis of the deposited data

How the results depend on the processing

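The median log2 change of the members was -0.59 and ran from -0.64 to -0.53 when each library was left out, and 21 to 26 members were called lower, against 22. In those fits 19.4% to 25.1% of all genes were called lower, against 24.7%. Without the filter on low values the median was -0.47 over 34 members, and that of the other genes inside the stretch was -0.18, since genes near 0 then enter. The spread among members, 0.49, was 0.54 with a pseudocount of 0.1, 0.48 without the filter, 0.50 with a minimum of 5 TPM, and 0.49 to 0.50 when each library was left out. With a pseudocount of 0.1, STOX1 changed by -1.64, MYPN by -1.25, RTKN2 by -1.24, ANK3 by -1.06 and PBLD by -0.74. Median-ratio scaling called 26 members lower, with RUFY2 the exception, beside 26.9% of all genes fitted. Leaving out control replicate 1 did likewise, beside 25.1% of all genes fitted. Leaving out resistant replicate 1 called 25 members lower, beside 24.5%. DDX21 was not called without the filter, with the replicate block, or without resistant replicate 2, resistant replicate 3 or control replicate 3. OGDHL turned to -0.011 without resistant replicate 2, over a range of -0.011 to 0.089, and HNRNPH3 to -0.031 without control replicate 1, over a range of -0.031 to 0.104. RHOBTB1 and HKDC1 were called higher in each alternative. Libraries with the same replicate number did not deviate together (correlations of -0.06, -0.00 and -0.02). The fit with the replicate block called 6856 genes, against 7815. It called 21 members lower, beside 21.3% of all genes fitted, with the median of members at -0.59. The 3 libraries per group limit every standard error, and estimated reads limit EGR2, ASAH2 and A1CF.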

Other observations

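Non-coding genes of the stretch were not on the list. Of 13 that passed the filter, 8 were below 0, with a median log2 change of -0.37, and 5 were called lower and 2 higher by limma. Over all genes tested 50.5% were below 0, 24.7% were called lower and 24% higher, so the count below 0 and the count called higher lay near these shares. The lincRNA RP11-346D6.6 averaged 5.49 ± 0.503 TPM in resistant cells and 24.9 ± 4.53 TPM in control cells, a change of -1.98 (limma, adjusted p = 3.21e-05). LINC00843 averaged 1.20 ± 0.111 TPM in resistant cells and 3.66 ± 1.16 TPM in control cells, a change of -1.06 (limma, adjusted p = 0.00248). Both genes called higher, RP11-227H15.4 and RP11-227H15.5, are antisense to HKDC1. RP11-227H15.5 averaged 2.39 ± 0.833 TPM in resistant cells and 0.546 ± 0.477 TPM in control cells. The genes named here were chosen after their values were seen.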
